A study of Mus musculus with 6 samples.

Results

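Of the 22913 genes in the deposited count table, 104 were protein-coding genes of oxidative phosphorylation, chosen by name alone: the Nduf, Sdh, Uqcr, Cox and Atp5 families, Cyc1 and the mitochondrially encoded Nd, Co, Cytb and Atp genes. The nuclear genome carries 91 of them and the mitochondrial genome 13. By the enzyme they belong to, 51 were assigned to complex I, 4 to complex II, 10 to complex III, 21 to complex IV and 18 to complex V. Within these, 33 encode subunits classed here as core, 60 accessory subunits, 8 complex I assembly factors and 3 associated proteins. The core class holds catalytic and rotor subunits and also some membrane subunits, such as the mitochondrially encoded Nd subunits and the complex II anchors. The name rule takes in only part of the assembly factors, so the others are given as a separate list.

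Complexes I to IV pass electrons from NADH and succinate to oxygen and build a proton gradient across the inner mitochondrial membrane, and complex V, the ATP synthase, uses that gradient to make ATP. Complex II is encoded wholly in the nucleus, whereas the other complexes join nuclear subunits, imported from the cytosol, to a few subunits made inside the organelle from mitochondrial DNA. Heart muscle depends on this pathway for most of its energy and uses muscle isoforms of several complex IV subunits.

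The RNA came from HL-1, an immortal mouse line of atrial cardiomyocyte origin. In the labels 3 libraries (Ctrl) come from cells with a control plasmid and 3 (HSPA1A) from cells transfected with a plasmid to overexpress HSPA1A, a stress-inducible heat shock chaperone that one label calls human. Both groups are the same cell line with no other stated difference, and the labels give the lipid transfection and the harvest after 48 h under protocols that all samples share. Polyadenylated RNA was sequenced with a stranded kit, and the labels do not say whether replicates were separate cultures, so p-values measure the spread between libraries, which may be technical.

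Depth ranged from 23849656 to 26897086 counts per library. The targeted gene gave no check on the labels: mouse Hspa1a had 10, 17 and 11 counts in Ctrl and 17, 20 and 11 in HSPA1A libraries, and Hspa1b 75, 76 and 66 against 56, 94 and 74, so "HSPA1A" below means the libraries labelled so. A human plasmid transcript is counted only where its reads align to mouse genes. HSPA1A replicate 2 stood apart from its group, at -12.8 on the first principal component of log2 CPM (38% of the variance), against 12.8 and 14.9 for HSPA1A replicates 1 and 3 and -6.81 to -3.46 for Ctrl. Of 17 cardiac markers looked for, 11 were in the table, and Nppa, Myh6, Mybpc3, Pln, Sln and Myl7 were not. The summed level of the 11 was 709 to 730 CPM (counts per library total, scaled by TMM) in Ctrl and 638 to 676 in HSPA1A. Desmin made up most of it, Tnnt2 and Gata4 were at 39.1 and 32.3 CPM in Ctrl, and the sarcomere genes Tnni3, Actn2 and Actc1 and the calcium channel gene Ryr2 were near 0. Of 7 fibroblast markers, Col1a2 was at 304, Col1a1 at 76.4, Dcn at 18.3, Pdgfra at 4.17 and Postn at 0.548 CPM in Ctrl. Lum and Thy1 were at 0 there. The summed level was 396 to 414 in Ctrl against 373 to 395 in HSPA1A. Endothelial markers summed to at most 0.701 CPM, macrophage markers to 3.25 to 7.38 CPM and smooth muscle markers to 40.2 to 51.8 CPM. Nearly all of the macrophage sum was Cd68 (3.96 CPM in Ctrl), and nearly all of the smooth muscle sum was Acta2 (45.4 CPM in Ctrl). The part of these markers in the results was not tested.

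The mitochondrially encoded mRNAs fell into an abundant and a scarce set. With 1 exception, the members of the scarce set were genes with a near-complete annotated copy elsewhere in the genome. Levels are given as FPKM, the deposited unit per length and library size, as the mean of all 6 libraries. mt-Cytb, the cytochrome b of complex III, and mt-Nd1, a membrane subunit of complex I, were both at 10300 FPKM, mt-Atp8 at 9920, the catalytic complex IV subunit mt-Co1 at 7880, mt-Nd2 at 6120, mt-Nd4 at 4340 and mt-Nd5 at 2100. Then came a gap to mt-Atp6, the proton channel subunit of ATP synthase, at 232 FPKM, and to mt-Nd6 at 166. mt-Nd4l was at 58.7, mt-Co3 at 56.2, mt-Co2 at 45 and mt-Nd3 at 34.3 FPKM. As background, mt-Atp8 and mt-Atp6 lie on 1 shared mRNA, as do mt-Nd4l and mt-Nd4. Every library showed the same division: mt-Atp8 was between 8970 and 11167 FPKM and mt-Atp6 between 191.5 and 261.3.

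Sequence shared with other annotated genes was measured as the percent of a gene's 100-base windows found, on either strand, in the transcript of another gene (GENCODE M21, GRCm38). It was 99.9% for mt-Co3, 99.5% for mt-Co2 and mt-Atp6, 98.5% for mt-Nd4l and 97.6% for mt-Nd3. It was 0% for mt-Cytb, mt-Nd1, mt-Nd5, mt-Nd6 and mt-Atp8, 3.2% for mt-Nd2, 30.8% for mt-Co1 and 60.8% for mt-Nd4. The exception is mt-Nd6, the only one of the 13 read from the light strand, which shares no window. The long copies are unprocessed pseudogenes on chromosome 1, on the minus strand within chr1:24611535-24616197. Only annotated transcripts were searched, so a gene at 0% may still have a copy without annotation. mt-Atp8 follows mt-Co2 and overlaps mt-Atp6, which both have a copy in that block, and the stretch between those copies was not searched. Over the aligned bases, Gm28661 was identical to mt-Co2 (681 bases), Gm28437 to mt-Co3 (783), Gm10925 to mt-Atp6 (678), Gm10222 to mt-Nd4l (294) and Gm28439 to part of mt-Nd4 (876). Gm28438 differed from mt-Nd3 at 1 of 345 bases, and Gm29216 from part of mt-Co1 at 6 of 492, all within its first 13 bases. The copies were themselves counted at low levels, for example 508, 446 and 387 counts for Gm28661 in Ctrl and 422, 346 and 406 in HSPA1A. The sources used here do not state how reads that match both places were counted, and the part of these copies in the low levels was not tested. The windows below show 80 bases of 3 mitochondrial genes and of their copies, because a read that falls inside them has the same or almost the same letters at both places. Capitals mark the bases that differ, and positions are on GRCm38.
mt-Co2, chrM:7313-7392, plus strand: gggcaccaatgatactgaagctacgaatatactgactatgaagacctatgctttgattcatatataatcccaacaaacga
Gm28661, chr1:24615186-24615265, minus strand: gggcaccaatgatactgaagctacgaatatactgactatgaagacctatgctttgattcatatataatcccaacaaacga
mt-Nd3, chrM:9459-9538, plus strand: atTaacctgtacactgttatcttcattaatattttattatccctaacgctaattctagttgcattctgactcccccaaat
Gm28438, chr1:24613040-24613119, minus strand: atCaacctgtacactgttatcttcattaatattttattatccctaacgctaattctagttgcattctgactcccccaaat
mt-Co1, chrM:6381-6460, plus strand: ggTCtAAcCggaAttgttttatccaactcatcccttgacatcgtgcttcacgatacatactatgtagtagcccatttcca
Gm29216, chr1:24616118-24616197, minus strand: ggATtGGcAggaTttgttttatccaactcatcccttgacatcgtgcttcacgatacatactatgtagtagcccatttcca

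**Figure D1:**
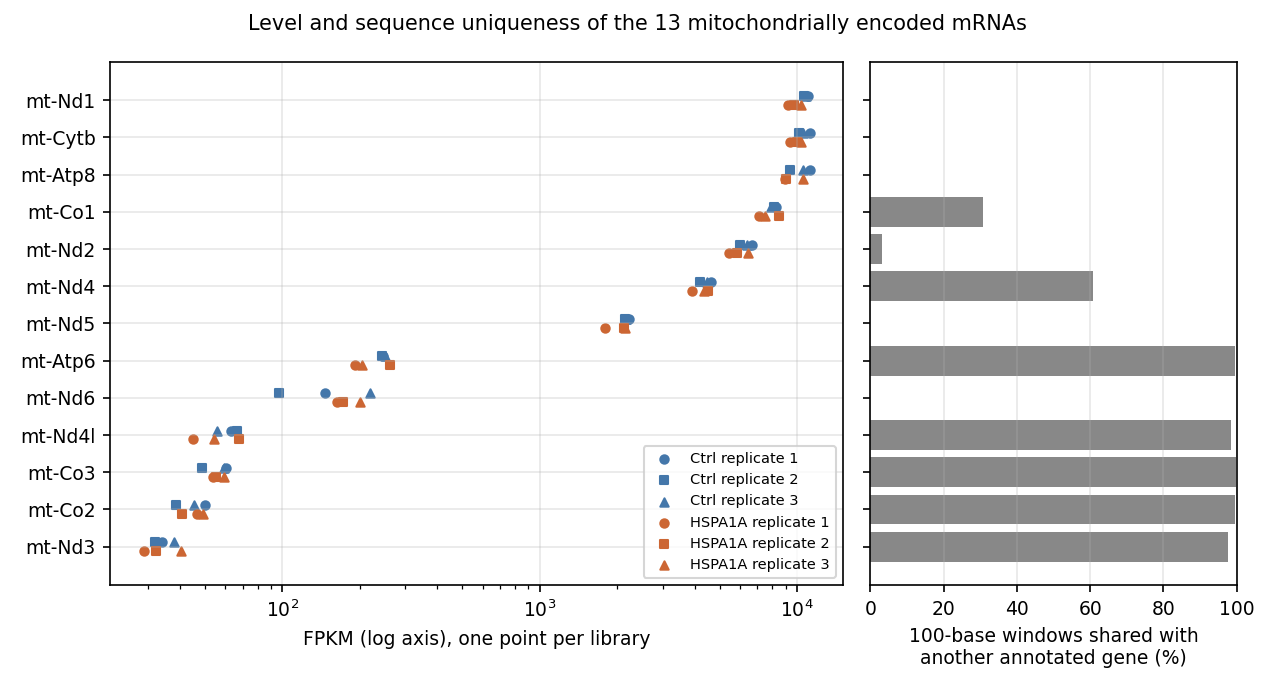
Left, FPKM (log axis) of each mitochondrially encoded mRNA in each of the 6 libraries, and right, the percent of its 100-base windows shared with another annotated gene. The 5 genes with at least 97.6% of windows shared lie at no more than 261.3 FPKM in any library, and among the genes at those levels mt-Nd6 is the one with no shared window.

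Between the groups, none of the 13 mitochondrially encoded genes passed the test (edgeR's quasi-likelihood test, Benjamini-Hochberg adjusted, smallest adjusted p = 0.734). Their log2 fold changes, HSPA1A minus Ctrl, ran from -0.12 to 0.27 with a median of -0.04, and 9 were below 0. mt-Nd1 was at 11031, 10572 and 10791 FPKM in Ctrl and at 9209, 9674 and 10321 in HSPA1A. On this scale, which has no correction for RNA composition, all 3 HSPA1A libraries were below all 3 Ctrl libraries. After TMM scaling, mt-Nd1 overlapped between the groups, at 10900 ± 344 CPM (SD, n = 3) in Ctrl and 10300 ± 702 CPM (SD, n = 3) in HSPA1A, with a log2 fold change of -0.09 ± 0.06 (SE). mt-Co1 was at 13200 ± 400 CPM in Ctrl and 13000 ± 871 CPM in HSPA1A (SD, n = 3). mt-Atp6 had 178, 174 and 179 CPM in Ctrl and 146, 190 and 155 in HSPA1A. HSPA1A replicates 1 and 3 of mt-Atp6 were thus below all Ctrl libraries and replicate 2 above them. mt-Nd6 had 81.1, 52.6 and 119 CPM in Ctrl and 94.6, 94.6 and 116 in HSPA1A, and its fold change had the widest interval of the 13, from -0.22 to 0.76 on the log2 scale. Its strand partner mt-Nd5 overlaps it at the 3′ ends, and the sources used here give no strand setting of the counter.

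Together the 13 mitochondrial genes took 6.04%, 5.59% and 5.75% of counts in Ctrl and 5.15%, 5.59% and 5.70% in HSPA1A libraries, whereas the 91 nuclear genes took 1.04%, 1.1% and 1.09% against 1.14%, 1.08% and 1.11%. The mitochondrial share was lowest in HSPA1A replicate 1 and the groups overlapped in both shares. The median deviation of the mitochondrial genes from the Ctrl mean was 0.05, -0.09 and 0.01 (log2 CPM) in Ctrl and -0.12, -0.02 and 0.06 in HSPA1A. Its sign between groups rested on single libraries, since the median fold change was 0.02 without HSPA1A replicate 1 and 0.004 without Ctrl replicate 1. In bulk RNA, fewer cells of a type and less RNA per cell cannot be told apart.

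The nuclear genes were, in contrast, mostly a little higher in the HSPA1A libraries, but none passed the test. Of the 104 genes, 102 were tested. The other 2 are the complex IV isoforms Cox4i2, with 0, 1 and 2 counts in Ctrl and 3, 3 and 2 in HSPA1A, and Cox8b, with at most 2 counts in any library. edgeR's quasi-likelihood test, Benjamini-Hochberg adjusted, called 0 members higher and 0 lower, against a background of 0.0234% called higher and 0.156% lower (0.179% in either direction) among all 12827 genes tested. DESeq2 also called 0, against 0.203% of all tested genes called higher and 0.296% lower. At an unadjusted p under 0.05, 24 members were higher, all of them nuclear, and 0 lower, where 4.33% and 4.26% of all tested genes passed. In 20 of the tested members, all nuclear, every HSPA1A library was above every Ctrl library, and in 0 members below, where 7.3% and 7.17% of all tested genes did not overlap. The median log2 fold change was 0.11 over the 89 nuclear genes tested, of which 73 were above 0, against 0.003 over all tested genes, of which 51% were above 0. The difference between nuclear and mitochondrial genes was not tested.

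**Figure D2:**
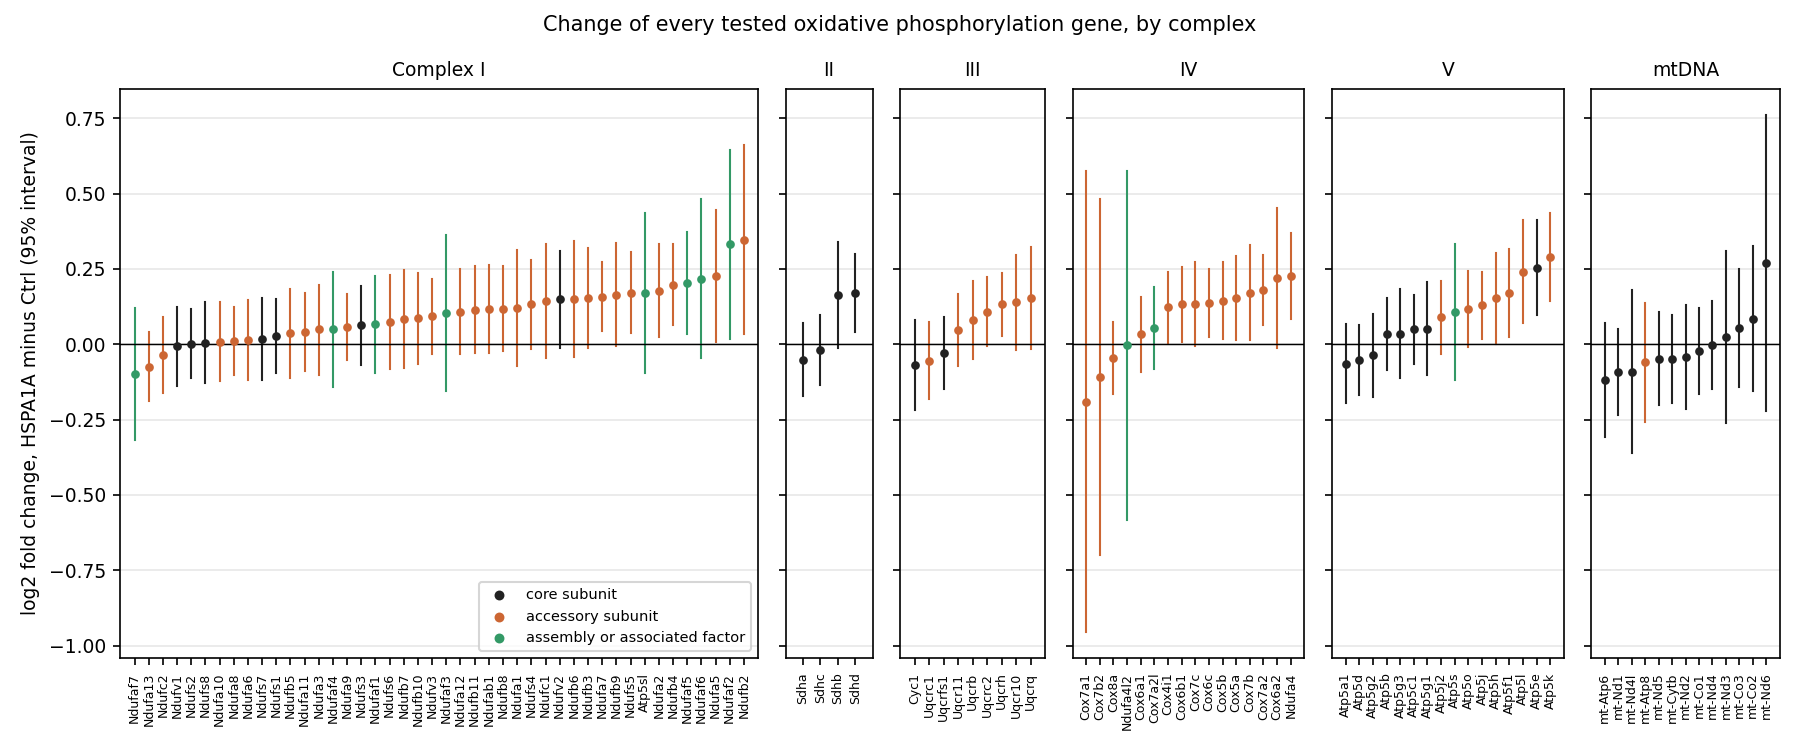
Log2 fold change, HSPA1A minus Ctrl, with its 95% interval, for each of the 102 tested genes (3 libraries per group), ordered within each complex and coloured by subunit class. Of the 89 nuclear genes 73 lie above 0, and of the 13 mitochondrially encoded genes 4 do.

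The shift of the nuclear genes was carried by HSPA1A replicates 1 and 3. Relative to the Ctrl mean, the median nuclear gene stood at -0.04, 0.01 and 0.02 (log2 CPM) in the Ctrl libraries, at 0.14 in HSPA1A replicates 1 and 3, and at -0.001 in HSPA1A replicate 2. In 66 of the 89 nuclear genes replicate 2 was the lowest HSPA1A library, and in 65 it lay at or below the highest Ctrl library. The shares of all tested genes were not taken for these counts, so they may not be particular to the nuclear genes. HSPA1A replicates 1 and 3 both lay above every Ctrl library in 56 of the 89, against 21% of all tested genes, and both below in 2. Without HSPA1A replicate 2, edgeR's quasi-likelihood test called 36 members higher, all nuclear, and 1 lower, the mitochondrial mt-Atp6 (log2 fold change -0.24). In that fit 5.27% of all tested genes were called higher and 4.94% lower, so the whole transcriptome gained calls as well. With each of the other 5 libraries left out in turn, 0 members were called in either direction.

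**Figure D3:**
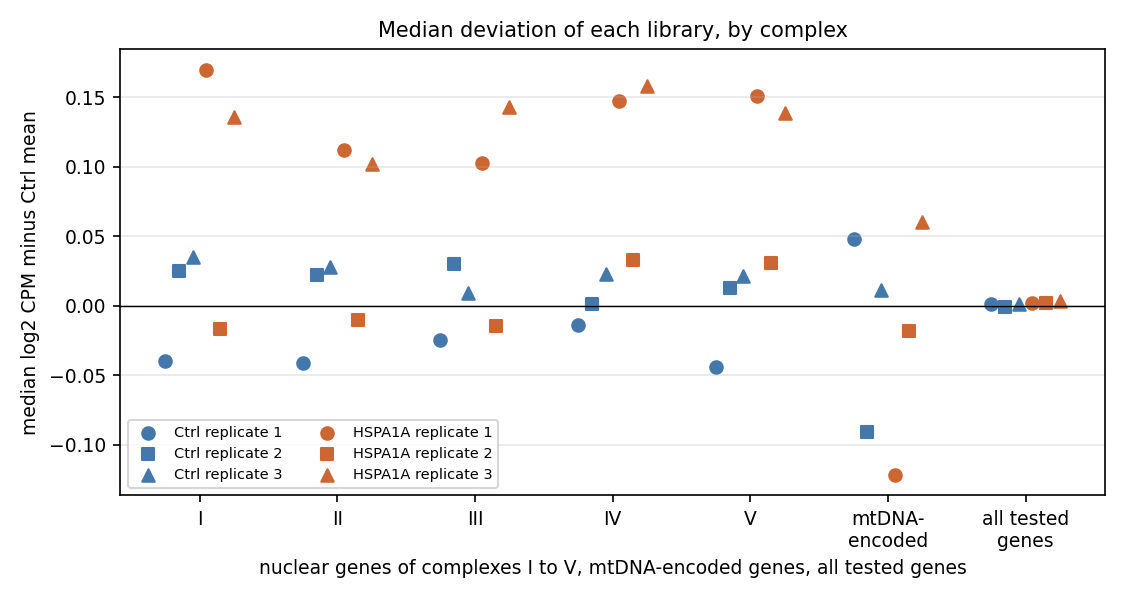
Median deviation from the Ctrl mean (log2 CPM, vertical axis) of the nuclear genes of complexes I to V, of the mitochondrially encoded genes and of all tested genes, 1 point per library. In each complex HSPA1A replicates 1 and 3 lie above the 3 Ctrl libraries, whereas replicate 2 does not in complexes I to III and lies only slightly above in IV and V; the all-gene medians stay within 0.003 of 0.

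RNA composition also differed between libraries, for some RNAs in part along the same ones and for others between the groups as a whole. Yam1, a noncoding RNA, took 1.86%, 1.18% and 1.23% of counts in Ctrl and 2.70%, 1.58% and 2.53% in HSPA1A. It was highest in HSPA1A replicates 1 and 3, but Ctrl replicate 1 was above HSPA1A replicate 2. The ribosomal RNAs mt-Rnr1 and mt-Rnr2 together took 0.24%, 0.129% and 0.15% in Ctrl and 0.251%, 0.175% and 0.245% in HSPA1A. Ctrl replicate 1 had the lowest nuclear median, -0.04. Of the RNAs looked at for composition, only Neat1 had a log2 fold change below 0 (-0.312). The small structural RNA Rmrp was at 1.1 to 2.31 CPM in Ctrl and at 7.21, 3.9 and 5.07 CPM in HSPA1A, unscaled, with adjusted p = 0.0621 by edgeR's quasi-likelihood test. On the same unscaled values, Rn7sk was at 10.59, 6.85 and 6.4 CPM in Ctrl and at 15.6, 12.68 and 19.16 in HSPA1A. Rpph1 was at 0.76, 0.61 and 0.73 CPM in Ctrl and at 1.13, 1.6 and 1.25 in HSPA1A. In Rmrp, Rn7sk and Rpph1 every HSPA1A library, replicate 2 included, was above every Ctrl library. In Neat1 every HSPA1A library was below. With Yam1 (log2 CPM) as a covariate the nuclear median was 0.05, and with a correction of each library for gene length and GC content it was 0.04. The part of RNA composition in the nuclear shift was not tested further.

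Within the nuclear set, accessory subunits and core subunits stood at different values. The 57 tested accessory subunits had a median log2 fold change of 0.12, with 51 above 0 and 16 whose HSPA1A libraries all lay above Ctrl. The 21 core subunits had a median of 0.02, with 13 above 0 and 2 without overlap, shares near those of all tested genes, of which 51% were above 0 and 7.3% lay higher without overlap. The 11 assembly and associated factors had a median of 0.11. Without HSPA1A replicate 2, 31 of the 57 accessory and 4 of the 21 core subunits were called higher by edgeR, where 5.27% of all genes tested in that fit were. The core median changed sign with scaling, to -0.02 on library totals and to -0.04 on log2(FPKM + 1). On these scales the median of all tested genes was itself below 0, at -0.033 and -0.041. Without HSPA1A replicate 1 the core median was -0.02, where that of all tested genes was 0.005. The accessory median stayed above 0 in every alternative run. Accessory subunits have short mRNAs: their longest transcript had a median of 875 bases, against 1697 for core subunits and 3273 for all tested genes. Across all tested genes with a length (12781), longer transcripts had slightly lower fold changes (Spearman's rho = -0.11), and across the 89 nuclear members rho was -0.10. These are descriptions across genes of the same libraries. After the correction for length and GC the accessory median was 0.06 and the core median 0.03. The difference between the classes was not tested.

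**Figure D4:**
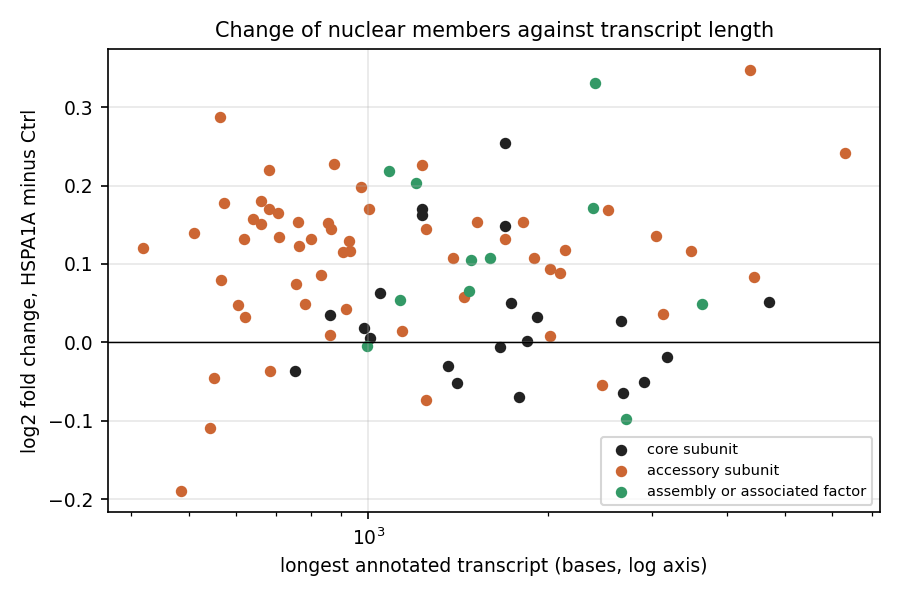
Log2 fold change, HSPA1A minus Ctrl, of each of the 89 tested nuclear genes against the length of its longest annotated transcript (log axis), coloured by subunit class. Accessory subunits, at a median of 875 bases, lie mostly to the left and above 0. The highest of them, Ndufb2, has 4371 bases, and Atp5l, also raised, has 6310. Core subunits, at a median of 1697 bases, lie mostly near 0.

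Complex I takes electrons from NADH and is the largest of the complexes. Its 44 nuclear genes had a median log2 fold change of 0.10, with 40 above 0. Of the 44, 7 lay higher in HSPA1A without overlap, a larger share than the 7.3% of all tested genes. The 7 nuclear core subunits, which hold the flavin and the iron-sulfur clusters, had a median of 0.02 and a range of -0.01 to 0.15, the highest being Ndufv2. Ndufs1, which carries several of those clusters, was at 90.3, 83.8 and 83.6 CPM in Ctrl and at 91.6, 85.5 and 85.6 CPM in HSPA1A. Its groups overlapped, and replicate 1 was the highest library in both.

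The 29 accessory subunits of complex I had a median of 0.12, of which 27 were above 0. The accessory subunit Ndufb4 was at 67.7, 74.2 and 75.7 CPM in Ctrl and at 86.9, 79.1 and 83.7 CPM in HSPA1A, a log2 fold change of 0.20 with adjusted p = 0.434 by edgeR's quasi-likelihood test, Benjamini-Hochberg adjusted. Every HSPA1A library was above every Ctrl library, and 16% of the windows of Ndufb4 occur in its processed pseudogene Ndufb4c, which had 12 to 27 counts per library. Ndufb2 had the highest change of complex I, 0.35 ± 0.14 (SE), but at only 6.1 ± 0.48 CPM in Ctrl and 7.79 ± 1.32 CPM in HSPA1A (SD, n = 3), and its groups overlapped. Ndufa13, an accessory subunit also known as a cell death regulator, was at 69.2, 67.6 and 72.5 CPM in Ctrl and at 65.4, 65.4 and 68 CPM in HSPA1A, with a log2 fold change of -0.07. It was 1 of the 2 accessory subunits below 0.

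The 8 complex I assembly factors, which build the enzyme and are not part of it, ranged from -0.10 to 0.33. Ndufaf2 was at 16.7, 19.6 and 15.9 CPM in Ctrl and at 23, 16.9 and 25.9 CPM in HSPA1A. HSPA1A replicates 1 and 3 were above Ctrl and replicate 2 within it, and the adjusted p was 0.563 by edgeR's quasi-likelihood test. Ndufaf2 shares 62.4% of its windows with B230220B15Rik, a noncoding RNA that overlaps it on the other strand. As the strand setting of the counter is not given, the level of Ndufaf2 is uncertain. Ndufaf7, which methylates a core subunit, was at 16.7 ± 1.88 CPM in Ctrl and 15.6 ± 1.2 CPM in HSPA1A (SD, n = 3).

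Complex II, succinate dehydrogenase, is also an enzyme of the tricarboxylic acid cycle. Its 4 genes divided into a pair near 0 and a pair above it. Sdhd, a membrane anchor, was at 68.2, 70 and 70.7 CPM in Ctrl and at 80.7, 72.6 and 81.7 CPM in HSPA1A, a log2 fold change of 0.17 with adjusted p = 0.485 by edgeR's quasi-likelihood test. The groups of Sdhd did not overlap. Sdhb, the iron-sulfur subunit, was at 107, 114 and 115 CPM in Ctrl and at 135, 109 and 133 CPM in HSPA1A, so that HSPA1A replicate 2 fell among the Ctrl values. Sdha, the flavin-bearing catalytic subunit, was at 118, 122 and 120 CPM against 121, 109 and 118 CPM, and the second anchor Sdhc at 90.8, 95.3 and 96.4 against 93.4, 95.6 and 89.8 CPM. Per length, the order of levels was Sdhb (96.3 FPKM), Sdhd (53.2), Sdha (37.8) and Sdhc (27.4), and no neighbours in that order overlapped over the 6 libraries.

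Complex III moves electrons from ubiquinol to cytochrome c. Its 9 nuclear genes had a median log2 fold change of 0.08, 6 above 0. Uqcrh, the hinge protein, was at 75.5, 75.9 and 76.6 CPM in Ctrl and at 82.1, 83.8 and 84 CPM in HSPA1A. The groups were apart and the spread within each was small, with HSPA1A replicate 2 inside the range of its group, and the log2 fold change was 0.13 ± 0.05 (SE), adjusted p = 0.512 by edgeR's quasi-likelihood test. Uqcrq was at 185 ± 3.99 CPM in Ctrl and 206 ± 23.2 CPM in HSPA1A and Uqcr10 at 84.5 ± 3.73 and 93.1 ± 8.69 CPM (SD, n = 3), both overlapping. The redox-active core subunits were not higher: Cyc1, cytochrome c1, was at 155, 164 and 150 CPM in Ctrl and at 156, 155 and 135 CPM in HSPA1A. Uqcrfs1, the Rieske iron-sulfur protein, had a log2 fold change of -0.03 and Uqcrc1, an accessory subunit, of -0.05.

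Complex IV, cytochrome c oxidase, had a median log2 fold change of 0.13 over 16 tested nuclear genes, with 12 above 0 and 6 that lay higher without overlap, against 7.3% of all tested genes. With the correction for length and GC the median was 0.04. Ndufa4, first named for complex I and now known as a complex IV subunit, was at 111, 123 and 120 CPM in Ctrl and at 144, 128 and 144 CPM in HSPA1A. The lowest HSPA1A library was above the highest Ctrl library, and the log2 fold change was 0.23 ± 0.06 (SE), adjusted p = 0.411 by edgeR's quasi-likelihood test. Cox7a2 was at 71.7, 73.5 and 76.5 CPM in Ctrl and at 82.4, 81.7 and 87 CPM in HSPA1A, also without overlap, with a log2 fold change of 0.18. Cox4i1, Cox5b, Cox6b1 and Cox6c likewise did not overlap, at log2 fold changes of 0.12 to 0.15. Cox8a, a short membrane subunit, was at 151, 140 and 149 CPM in Ctrl and at 146, 143 and 136 CPM in HSPA1A, and its log2 fold change of -0.05 was the lowest of complex IV among genes with at least 5 CPM.

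The complex IV isoforms were nearly all of the ubiquitous type in both groups. Of the summed FPKM of each pair, the heart and muscle isoform Cox6a2 took 7.25% ± 0.632 in Ctrl and 8.18% ± 0.904 in HSPA1A, and Cox7a1 3.15% ± 0.714 and 2.43% ± 1.18 (SD, n = 3). Cox8b, the muscle partner of Cox8a, took at most 0.0771% in any library, and Cox4i2, the isoform associated with lung and low oxygen, at most 0.0421%. As levels over all libraries these were 302 FPKM for Cox6a1 against 25.2 for Cox6a2, and 96.8 for Cox7a2 against 2.78 for Cox7a1. Cox7a2l, a supercomplex factor, was at 229 ± 1.77 CPM in Ctrl and 237 ± 18.5 CPM in HSPA1A (SD, n = 3).

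Complex V joins the F1 head and the rotating c ring to a stator and a membrane part. The 8 nuclear genes of the head and ring had a median log2 fold change of 0.03, and the 7 genes of the stalk and membrane part one of 0.15, with 7 of 7 above 0. Atp5k, the e subunit of the membrane part, where synthase dimers meet, was at 39.7, 37.3 and 40.8 CPM in Ctrl and at 50.5, 44.2 and 49.4 CPM in HSPA1A. All HSPA1A libraries were above all Ctrl libraries, and the log2 fold change of 0.29 ± 0.07 (SE) had the smallest adjusted p of the members, 0.247 by edgeR's quasi-likelihood test, Benjamini-Hochberg adjusted. Atp5l, the g subunit at the same place, was at 111, 91.5 and 112 CPM in Ctrl and at 130, 120 and 122 CPM in HSPA1A, a log2 fold change of 0.24 with adjusted p = 0.467 in the same test. Its groups did not overlap, and Ctrl replicate 2 was the lowest library.

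Of the head, only the small epsilon subunit Atp5e did not overlap between the groups. It was at 74.3, 80.1 and 87.4 CPM in Ctrl and at 101, 89.1 and 98.8 CPM in HSPA1A, with a log2 fold change of 0.25 and adjusted p = 0.408 by edgeR's quasi-likelihood test. The catalytic beta subunit Atp5b, the most abundant nuclear member, was at 1400, 1470 and 1470 CPM in Ctrl and at 1550, 1450 and 1450 CPM in HSPA1A. The groups of Atp5b overlapped, as did those of the alpha subunit Atp5a1, at 272, 272 and 278 CPM against 254, 283 and 248 CPM.

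The c ring is encoded by 3 genes whose mature proteins are known to be the same, and their log2 fold changes were 0.05 for Atp5g1, -0.04 for Atp5g2 and 0.04 for Atp5g3. In CPM, Atp5g1 was at 166 ± 9.53 in Ctrl and 172 ± 14.7 in HSPA1A, Atp5g2 at 265 ± 12.2 and 259 ± 17.5, and Atp5g3 at 210 ± 8.62 and 216 ± 18 (SD, n = 3). Of their summed FPKM, Atp5g1 took 4.69 to 5.35% over the 6 libraries, Atp5g2 49.1 to 55% and Atp5g3 40.3 to 45.6%. That order depends on the lengths behind the deposited FPKM, which worked out at 4912 bases for Atp5g1 but 731 and 724 bases for Atp5g2 and Atp5g3. Atp5g2 also shares 34.7% of its windows with other annotated genes.

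**Figure D5:**
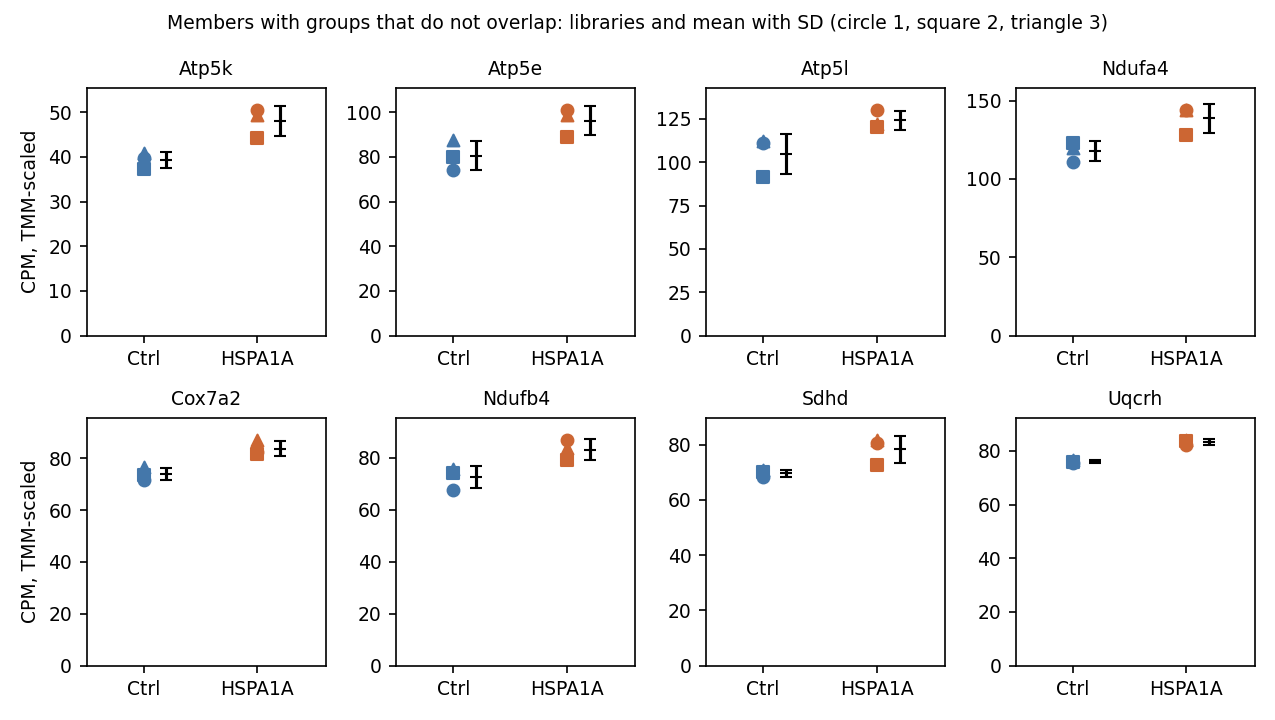
CPM (TMM-scaled, vertical axis from 0) in each library of 8 members, picked from the 20 of 102 tested members whose groups do not overlap. The mean and SD of each group of 3 are beside the points. By that choice the HSPA1A libraries lie above the Ctrl libraries in each panel. HSPA1A replicate 2 (square) is the lowest HSPA1A library in all but Uqcrh.

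Among nuclear members, levels per length were led by Atp5b at 708 FPKM, Cox4i1 at 352, Atp5g2 at 333 and Cox6b1 at 304. In complex I the leading nuclear gene was Ndufb9 at 283 FPKM, followed by Ndufa7 at 209, and in complex III Uqcrb at 198 and Uqcr10 at 189. The median nuclear level was 63.6 FPKM in complex I, 45.5 in II, 118 in III, 163 in IV and 172 in V. In complex I, 29 of 43 neighbouring pairs in the order of levels overlapped over the 6 libraries, so most of that order is not resolved, against 4 of 8 in III, 8 of 17 in IV and 6 of 15 in V. Of the 91 nuclear members, 12 share at least 10% of their windows with another annotated gene, and 32 overlap a gene on the other strand, so these levels are the less certain ones. A neighbour on the other strand, such as Tssk6 for Ndufa13, can count in both. Every level per length, and each order of levels, also rests on the lengths behind the deposited FPKM. For nuclear members these ranged from 0.079 (Atp5l) to 2.437 (Ndufa11) of the annotated exon length.

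Many nuclear respiratory genes are known to carry binding motifs of NRF1, of ETS factors such as GABP and of YY1 at their promoters. RefSeq promoters (GRCm38.p6, 250 bases before to 50 after the start) were matched for 75 of the 91 nuclear members, and each motif was searched on both strands. The NRF1 motif GCGCATGCG was in 13.3% of the members' promoters and in 1.95% of those of all 27025 genes in the table. The ETS motif CCGGAAG was in 22.7% against 9.93%, and the YY1 motif AAGATGGC in 14.7% against 3.19%. No test was made of these shares, and a match is only a run of letters. The promoters of Atp5k and Atp5l are shown because they are the members of complex V's membrane part with the highest fold changes and hold both an NRF1 and an ETS match. Matches are given in capitals and can lie on the other strand. The promoters of Uqcr11 and Cox6a1 hold both matches too, and the log2 fold changes of these genes were only 0.05 and 0.03.
Atp5k, chr5:108434350-108434649, minus strand: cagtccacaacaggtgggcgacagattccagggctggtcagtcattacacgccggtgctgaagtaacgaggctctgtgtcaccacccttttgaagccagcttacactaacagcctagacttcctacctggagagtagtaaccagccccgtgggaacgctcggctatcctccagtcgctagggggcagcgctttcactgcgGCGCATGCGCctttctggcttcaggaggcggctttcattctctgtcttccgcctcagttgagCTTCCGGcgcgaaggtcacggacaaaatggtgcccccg
Atp5l, chr9:44920693-44920992, minus strand: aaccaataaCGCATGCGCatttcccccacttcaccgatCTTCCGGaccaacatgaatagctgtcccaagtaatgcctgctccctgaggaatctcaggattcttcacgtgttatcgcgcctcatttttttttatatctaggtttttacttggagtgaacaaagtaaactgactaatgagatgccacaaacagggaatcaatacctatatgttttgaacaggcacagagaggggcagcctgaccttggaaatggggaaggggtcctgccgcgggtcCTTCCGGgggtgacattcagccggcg

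The levels of the factors named by those motifs overlapped between the groups. Nrf1 was at 42.6 ± 1.69 CPM in Ctrl and 43.9 ± 3.12 in HSPA1A, Gabpa at 43.8 ± 2.42 and 45.5 ± 1.26, and Yy1 at 60.9 ± 2.83 and 62.9 ± 1.21 CPM (SD, n = 3). Of 19 tested nuclear regulators of respiratory genes, edgeR's quasi-likelihood test called 0, 9 had a log2 fold change above 0 and the median was -0.03. At an unadjusted p under 0.05, 1 was higher and 3 lower (Ppard, Esrra and Pprc1), where 4.33% and 4.26% of all tested genes were. Without overlap of the groups, 1 was higher and 4 lower, against 7.3% and 7.17% of all tested genes. The 2 with the smallest p were Ppard, a fatty acid sensor, at 42.4 ± 0.633 CPM in Ctrl and 35.6 ± 3.6 in HSPA1A, and the growth kinase Mtor, at 33.5 ± 0.985 and 38.2 ± 2.51 (SD, n = 3). Their adjusted p-values were 0.411 and 0.477 in edgeR's test. Ppargc1a, the coactivator often called the master switch of mitochondrial biogenesis, was at 0.66 CPM in Ctrl and 0.786 in HSPA1A and thus scarcely detected.

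The other lists of the pathway held no called gene either, by edgeR's quasi-likelihood test or by DESeq2. Of 45 assembly factors, 30 were above 0 (median log2 fold change 0.05), with 3 higher at an unadjusted p under 0.05, a share near the 4.33% of all tested genes, and 0 lower. The 3 were Coa6, a copper factor of complex IV, at 7.45 ± 0.707 CPM in Ctrl and 9.26 ± 0.19 in HSPA1A, then Sdhaf2, which puts flavin into Sdha, at 52.2 ± 0.572 and 57.1 ± 1.73, and Uqcc2 at 119 ± 3.76 and 133 ± 11.5 (SD, n = 3). Of 26 genes for transcription, replication and RNA of mitochondrial DNA, 19 were above 0 with a median of 0.06. Slirp, which stabilises mitochondrial mRNAs, was at 63.5 ± 5.05 CPM in Ctrl and 76.7 ± 11.6 in HSPA1A, and the mitochondrial single-strand binding protein Ssbp1 at 81.1 ± 3.54 and 91.9 ± 8.25 (SD, n = 3). Tfam, which packages and transcribes mitochondrial DNA, was at 60.7 ± 0.595 and 63.1 ± 1.42 CPM.

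Among 23 tested carriers, cytochrome c and coenzyme Q genes the median log2 fold change was 0.02, with 14 above 0. Cycs, cytochrome c itself, was at 358 ± 9.01 CPM in Ctrl and 398 ± 37.6 in HSPA1A, and Slc25a4, the heart form of the ADP/ATP carrier, at 220 ± 4.94 and 208 ± 4.67 (SD, n = 3). The 21 genes of the tricarboxylic acid cycle and pyruvate dehydrogenase had a median of 0.03, with 13 above 0. The 2 with the smallest p were both below 0: Idh2 at 80 ± 4.14 CPM in Ctrl and 68 ± 7.49 in HSPA1A, and Ogdh at 74.3 ± 3.02 and 68.2 ± 2.8 (SD, n = 3), with adjusted p of 0.477 and 0.58 in edgeR's test. Both take part in oxidative decarboxylation steps. The groups of Idh2 and of Ogdh did not overlap, which was so, in the lower direction, for 7.17% of all tested genes.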

How the data were processed

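The data are 6 libraries of polyadenylated RNA from HL-1 cells, read as 150-base pairs per the labels' protocols. Per the submitters' processing notes, the tools were bcl2fastq, TopHat2 and edgeR and the build was GRCm38. Their versions, the read counter with its strand setting and its rule for reads with several matches, and the annotation were not given in the sources used here. Tables of whole read counts for 22913 genes and FPKM for 22833 genes were deposited by the authors. Depth was 23849656 to 26897086 counts per library.

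Counts were scaled by TMM in edgeR 4.0.16 (R 4.3.3), filtered with filterByExpr (minimum count 10, minimum total 15), which left 12827 genes, and compared over the whole table with edgeR's quasi-likelihood test, Benjamini-Hochberg adjusted, at a threshold of 0.05. The biological coefficient of variation was 0.0688. The script was tested on simulated counts. Per-library medians used log2(CPM + 0.5). Sharing of 100-base windows was counted over GENCODE M21 transcripts, where 22729 of the gene identifiers were found. A window missing there may still occur elsewhere in the genome.

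The members, lists and tests were chosen with earlier results of these data known. No p was computed over a list. Named with values were all mitochondrially encoded members, in each complex the 3 highest levels and the 3 highest and 3 lowest changes among members with a mean of at least 5 CPM, the isoform families, and the 2 genes with the smallest p of each list. Other names, such as Ndufs1, Ndufa13, Ndufb4, Uqcc2, Esrra, Pprc1, Tfam, Ppargc1a and the factors of the promoter motifs, were chosen after their values were seen. The alternatives were other size factors, DESeq2 1.42.0, other filters, limma 3.58.1 on FPKM, a replicate block, Yam1 as a covariate, a length and GC correction with mgcv 1.9.3 and each library left out. Protein sequences were not used here. Figures were drawn with matplotlib 3.10.9.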

Additional observations from a re-analysis of the deposited data

How the results depend on the processing

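The count of members called higher was 0 in the main analysis, 5 with no filter on low counts (mt-Nd6, Ndufaf2, Atp5e, Atp5k and Atp5l, of 94 genes called higher in all) and 0 to 36 with single libraries left out. The count called lower was 0 to 1 with single libraries left out, and both extremes came without HSPA1A replicate 2. All other alternatives called 0. The main fit called 3 genes higher in all, against the 94 with no filter. With no filter the SE was 0.065 for mt-Nd6 and 0.089 for Ndufaf2, against 0.222 and 0.142 in the main fit. It changed little for Atp5e, Atp5k and Atp5l. The groups of mt-Nd6 and Ndufaf2 overlapped, so the calls of these genes with no filter are weak. On log2(FPKM + 1) the median log2 fold change was 0.042 for nuclear genes, 0.012 for complex II, 0.073 for IV, 0.036 for V and -0.038 for core subunits, and the same with a mean FPKM of at least 1. With a pseudocount of 0.1 it was 0.012, 0.073 and 0.04 for II, IV and V and -0.039 for core subunits. On FPKM the median of all tested genes was itself -0.041 to -0.055. With Yam1 as a covariate the medians were 0.004 for complex III, 0.051 for IV and 0.051 for accessory subunits. With the length and GC correction they were 0.038 for nuclear genes, 0.041 for IV and -0.143 for mitochondrial genes. The cause of these moves was not tested. With single libraries left out, the nuclear median ran from 0.074 to 0.144, the core median from -0.021 to 0.046 and the mitochondrial median from -0.081 to 0.023. Same-numbered libraries correlated at -0.139, -0.033 and 0.097 in their deviations from the group means, and differently numbered ones at -0.099 to 0.129. With groups of 3 these values cannot tell whether same-numbered libraries were pairs. With the replicate block 0 members were called and the medians were 0.107 (nuclear) and -0.045 (mitochondrial). Of 773 values of 43 named genes under 18 alternatives, 702 kept their sign and 19 passed the threshold.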
